A study of Mus musculus with 11 samples.

Results

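The 42 genes described here code for the machinery that builds ribosomes in the nucleolus. They form a set that the transcription factor MYC is known to drive, and their rows were found in the deposited table by symbol. Of the 42, 41 have a row among the 17475 measured genes, and Rrs1 is not analysed here. Their messenger RNA was sequenced in macrophages sorted from mammary tumours of 6 female mice, 11 libraries in all. The tumours arise from the PyMT oncogene on a background backcrossed to B6.

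MYC mice carried S100a8-cre and Rosa26-LSL-MYC with PyMT, and control mice, per the labels, carried PyMT alone. All 6 mice were lethally irradiated at 7 weeks of age, received 3 M bone marrow cells (M for mega) from wild-type B6 donors, and were put on a low protein diet 2 weeks later for 6 weeks. The S100a8 promoter acts mainly in granulocytes and some monocytes, and the cells derived from the donor marrow do not carry the MYC allele, so that only cells of the host can. Tumour-associated macrophages (TAMs) were gated on F4/80 and Vcam. Mammary tissue macrophages (MTMs) were gated on F4/80 and FOLR2 without Vcam. There were 3 MYC TAM libraries (mice 2, 4 and 6), 3 control TAM libraries (mice 1, 3 and 5), 2 MYC MTM libraries (mice 2 and 4) and 3 control MTM libraries (mice 1, 3 and 5). Each library is a separate sort from 1 mouse.

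Ribosome building starts when RNA polymerase I copies the ribosomal DNA into a long precursor RNA in the nucleolus. Small nucleolar ribonucleoproteins of the box C/D and box H/ACA classes then modify that precursor, and large assemblies of processing factors, helicases and GTPases cut and fold it into the small and the large subunit. MYC, with its partner MAX, binds the E-box letters CACGTG and is known to raise transcription of many genes of this programme in growing cells. Dividing cells need many new ribosomes, and macrophages that do not divide need fewer.

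Because the set is defined by its link to MYC, the E-box letters near the start of each gene are shown first. RefSeq promoter windows on GRCm38.p6, from 250 bases before to 50 bases after the start, were found for 36 of the 42 genes. No window was used for Bop1, Rrp12, Rrs1, Npm1, Fbl and Gnl2. The window of Nop2, a methyltransferase of the large subunit RNA, is the single one with CACGTG before the start among genes that passed a test below. Its 250 bases before the start lie on the plus strand at chr6:125131633-125131882, with the E-box in capitals.
Nop2 promoter: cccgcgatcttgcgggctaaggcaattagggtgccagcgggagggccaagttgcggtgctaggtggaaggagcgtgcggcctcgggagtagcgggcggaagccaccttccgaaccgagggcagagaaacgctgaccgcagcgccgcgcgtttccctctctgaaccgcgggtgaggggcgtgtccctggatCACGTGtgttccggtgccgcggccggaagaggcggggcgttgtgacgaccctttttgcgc

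The other 5 genes with CACGTG carry it just after the start. Their 30 bases around the match, also on GRCm38.p6 and chosen after the values had been seen, are given with the letters in capitals. Utp20 and Tsr1 process the small subunit RNA, Pes1 is a partner of Bop1, Mybbp1a is a nucleolar binding protein, and Wdr43 is part of the small subunit assembly.
Utp20 (chr10:88826765-88826794, minus strand): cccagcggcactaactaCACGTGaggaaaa
Pes1 (chr11:3963965-3963994, plus strand): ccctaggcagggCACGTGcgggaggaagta
Mybbp1a (chr11:72441347-72441376, plus strand): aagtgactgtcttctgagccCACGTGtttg
Tsr1 (chr11:74898092-74898121, plus strand): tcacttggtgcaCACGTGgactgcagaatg
Wdr43 (chr17:71616220-71616249, plus strand): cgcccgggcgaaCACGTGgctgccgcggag

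The related letters CACGCG, or their reverse complement, are a weaker site for MYC and MAX. They stand in the windows of 12 genes. Noc2l, Nip7, Ddx10, Pes1, Nhp2, Mybbp1a, Nop16, Utp15, Polr1c and Nolc1 are among them and passed none of the main tests below. Ftsj3, Nop58, Dkc1 and Gnl3 passed in TAMs with neither set of letters in their windows. Only Polr1e and Ddx21, 2 of the genes with the smallest p-values below, are printed here.
Polr1e (chr4:45018629-45018658, plus strand): tgtcacttccggtttttgagtcCGCGTGtg
Ddx21 (chr10:62602249-62602278, minus strand): tgtcgccctctctcctagCACGCGgttgag

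Both strands were searched, and CACGTG reads the same on both. CACGTG was in 6 of 36 windows, 16.7%, against 8.09% of 27025 genes with a window and 12.5% of the 7017 measured genes with a mean level of 1 or more. The place of the match differed more than its frequency. Only 1 of 36 genes, 2.78%, held CACGTG before the start, against 10.5% of the 7017 genes, while 5 of 36, 13.9%, held it in the first 50 bases after the start, against 2.17%. CACGCG was in 12 of 36 windows, 33.3%, against 10.5% of 27025 genes and 19.6% of 7017 genes. Before the start CACGCG was in 5 of 36, 13.9%, against 16.3% of the 7017 genes. In the first 50 bases after the start it was in 6 of 36, 16.7%, against 3.95% of the 7017 genes. These are letter matches, not measured binding sites, and were not tested.

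**Figure D1:**
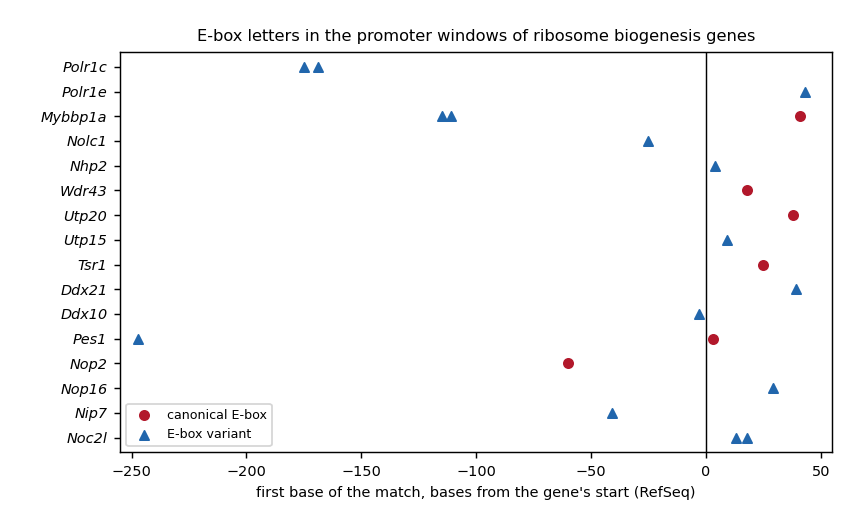
Position of the first base of each match to the canonical E-box (CACGTG, red circles) and to its variant (CACGCG, blue triangles), in bases from the RefSeq start of each of the ribosome biogenesis genes with a match. Of the 6 circles, 5 lie within the first 50 bases after the start and 1, of Nop2, lies before it.

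The deposited values are on a log2 scale and behave as log2 of 1 plus a length-scaled read number, so levels can be set side by side between genes. Differences are differences of these log2 values and understate the change of low genes. From the spacing of the low values, the libraries were estimated to hold 32.9 to 43.7 M reads in genes, and the 41 genes 141 to 26867 reads each per library. Several library-wide facts bear on the results. Vcam1, whose protein defines the TAM gate, was at 0.96, 1.61 and 2.82 in MYC TAMs, against 8.60, 7.64 and 8.57 in control TAMs (limma, difference of -6.47, adjusted p = 8.96e-05), so the transcript goes against the gate. It was at 2.32 and 2.31 in MYC MTMs, against 5.31, 6.86 and 5.25 in control MTMs (limma, difference of -3.49, adjusted p = 0.0445), so control MTMs, gated without Vcam, lay above every MYC TAM library. Emr1, the gene for F4/80 in the gate of both cell types, averaged 7.82 ± 0.48 in MYC TAMs and 9.63 ± 0.27 in control TAMs (SD, n = 3 each) and fell by 1.81 with no overlap (limma, adjusted p = 0.00148). Folr2, the MTM gate gene, was at 0.96 to 3.62 in the 6 TAM libraries, against 7.67 to 8.45 in MTMs. Of 9 macrophage markers 2 rose and 5 fell in MYC against control TAMs, and their lowest value in any library was 3.97, for Fcgr1 in MYC TAM mouse 4. The receptor gene Csf1r fell to 7.59 to 8.09 in MYC TAMs, against 10.25 to 10.74 in control TAMs, and Cd68 rose to 10.18 to 10.41 in MYC TAMs, against 8.17 to 8.51 in control TAMs (limma, adjusted p = 6.34e-05 and 6.61e-05). The MYC TAM library of mouse 4 had 581 genes at their lowest possible value, that of 0 reads, while 2072 to 3522 genes were there in each of the other 10. The names MYC TAM and control TAM are used below as on the labels.

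Myc itself was lower in MYC than in control TAMs. It was at 2.16, 1.92 and 1.78 in MYC TAMs, against 2.66, 3.18 and 3.11 in control TAMs. Every MYC TAM library was below every control TAM library, and Myc fell by 1.02 ± 0.19 (SE; limma, adjusted p = 0.00583). In MTMs it was at 2.87 and 3.02 in MYC mice, against 2.53, 2.62 and 2.75 in control mice, a difference of 0.31 that did not pass (adjusted p = 0.733). The labels do not give the species of the MYC transgene or whether its reads count towards Myc. The name MYC-driven describes how the genes were chosen. Whether MYC drives them in these cells was not tested.

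Averaged over the 11 libraries, the most abundant of the 41 genes was Fbl, the methyltransferase fibrillarin of box C/D particles, at a log2 level of 6.70. Rrp1b, a nucleolar regulator of processing, was the lowest at 1.54, with 1.90, 1.82 and 1.50 in MYC TAMs, 1.20, 1.47 and 1.82 in control TAMs, 1.88 and 1.75 in MYC MTMs, and 1.15, 1.21 and 1.24 in control MTMs. The mean level of all 41 genes in a library was 4.02 to 4.22 in MYC TAMs, 4.42 to 4.63 in control TAMs, 4.47 to 4.52 in MYC MTMs and 4.22 to 4.40 in control MTMs. The MYC TAMs lay below the control TAMs and MYC MTMs, and the 2 MYC MTM libraries above the 3 control MTM libraries. Among genes with a mean level of 1 or more the same means were 3.15 to 3.29, 3.36 to 3.52, 3.43 to 3.45 and 3.46 to 3.55. MYC TAMs had the lowest of the 4 group means for 27 of 41 genes, and control TAMs the highest for 18. This order was not counted for other genes. Of the 9375 genes with a mean level of 1 or more, 6007 had a lower mean in MYC than in control TAMs. In MYC mice 6233 of them had a lower mean in TAMs than in MTMs. For the 41 genes these numbers were 33 and 32. The median SD within a group was 0.38 in MYC TAMs, 0.23 in control TAMs, 0.14 in MYC MTMs and 0.20 in control MTMs.

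**Figure D2:**
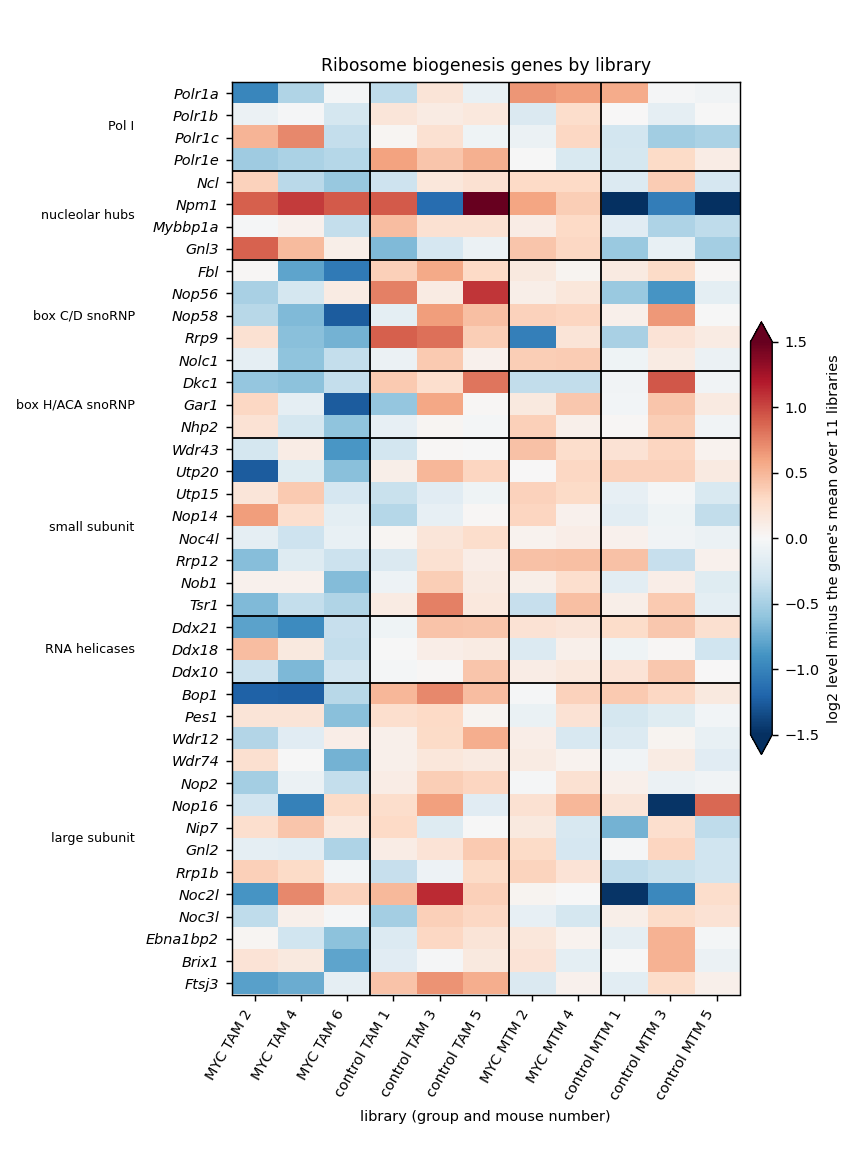
Log2 level of each of the 41 ribosome biogenesis genes (rows, grouped by role) in each of the 11 libraries (columns, group and mouse number), minus the mean of that gene over all libraries. Blue fields (lower) gather in the 3 MYC TAM columns, while Npm1, Nop16 and Noc2l vary widely within a group. In MYC TAMs 27 genes have their lowest group mean, a count that was not made for other genes.

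In TAMs, the libraries of MYC mice were compared with those of control mice. How many of the sorted cells carried the MYC alleles was not measured. Of the 41 genes, 9 fell and 1 rose, 24.4%, against 15.9% of all 17475 genes called in either direction, 12.0% lower and 3.89% higher. Among the 9375 genes with a mean level of 1 or more, 24.0% were called, 18.1% lower and 5.86% higher, so that the share of the 41 genes called is close to that of expressed genes as a whole. The median difference of the 41 genes was -0.39, with 33 of 41 negative, against -0.02 over all genes and -0.21 over expressed genes. In 18 of the 41 genes every MYC TAM library lay below every control TAM library, against 22.1% of all genes and 30.4% of expressed genes, and in 1 gene every library lay above, against 8.03% of all genes and 10.6% of expressed genes. Centring each library on its median moved the median of all genes from -0.02 to 0.19, and then 1 of the 41 rose and 7 fell, 19.5%, with a median of -0.19. Of all genes 28.8% were called under that scaling, 20.1% higher and 8.66% lower, so that the balance of all genes turned to higher. Under quantile normalization 3 of the 41 rose and 6 fell, 22.0%, with a median of -0.21, against 15.2% of all genes, 6.33% higher and 8.89% lower.

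**Figure D3:**
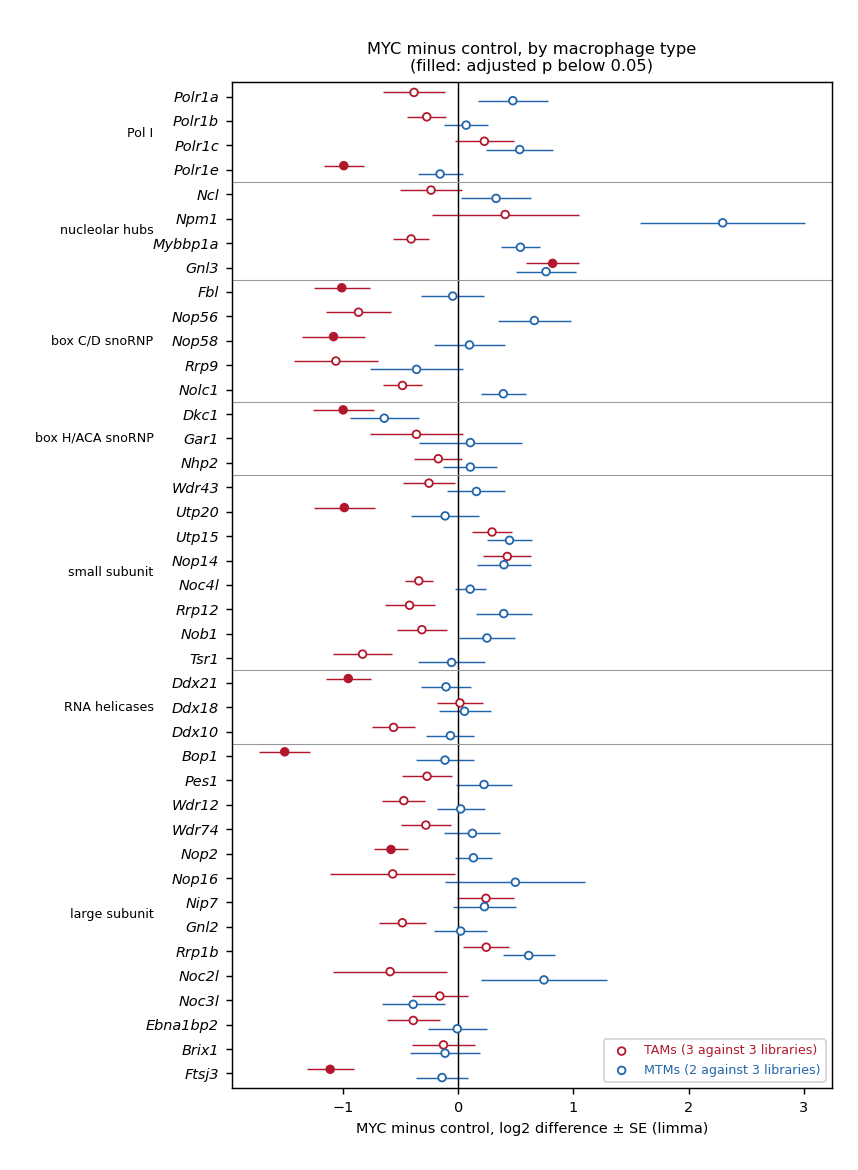
Difference of log2 level between MYC and control mice for each ribosome biogenesis gene, in TAMs (red, 3 against 3 libraries) and in MTMs (blue, 2 against 3 libraries), with bars of 1 SE from limma and filled points where the adjusted p is below 0.05. In TAMs 9 points are filled to the left of 0 and 1, Gnl3, to the right, and in MTMs none is filled.

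Large subunit factors held the largest fall. Bop1, which forms a complex with Pes1 and Wdr12 needed to process the large subunit RNA, was at 3.49, 3.48 and 4.30 in MYC TAMs, against 5.20, 5.43 and 5.17 in control TAMs. The groups did not overlap, and Bop1 fell by 1.51 ± 0.22 (SE; limma, adjusted p = 0.00194), or 2.85-fold on this scale. Its partners Pes1 and Wdr12 differed by -0.27 and -0.47 and did not pass (limma, adjusted p = 0.447 and 0.128). Ftsj3, an RNA methyltransferase of the precursor, was at 3.54, 3.61 and 4.22 in MYC TAMs, against 4.78, 5.03 and 4.90 in control TAMs. It fell by 1.11 ± 0.21 with no overlap (limma, adjusted p = 0.00611). Nop2 was at 4.90, 5.31 and 5.04 in MYC TAMs, against 5.52, 5.77 and 5.72 in control TAMs. Here too the groups were apart, and Nop2 fell by 0.59 ± 0.15 (limma, adjusted p = 0.0237). Of the 14 large subunit genes measured, 3 fell and none rose, with a median of -0.43 and a range from -1.51 to 0.24.

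RNA polymerase I genes gave 1 fall among 4. Polr1e, a subunit that helps the enzyme start and elongate, was at 2.03, 2.09 and 2.14 in MYC TAMs, against 3.17, 2.98 and 3.10 in control TAMs. Each group was tight, the gap between them was wide, and Polr1e fell by 1.00 ± 0.18 (SE; limma, adjusted p = 0.00487). Polr1b, the second largest subunit, was at 2.34, 2.41 and 2.17 in MYC TAMs, against 2.61, 2.55 and 2.59 in control TAMs. Its libraries did not overlap either, yet the difference of -0.27 did not pass (limma, adjusted p = 0.344). The catalytic subunit Polr1a differed by -0.39 and Polr1c, which RNA polymerase III shares, by 0.23, and neither passed.

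Both classes of small nucleolar particle had members that fell. Fbl was at 6.72, 5.91 and 5.64 in MYC TAMs, against 7.05, 7.26 and 6.99 in control TAMs. The library of mouse 2 came close to the control TAMs without reaching them, and Fbl fell by 1.01 ± 0.24 (SE; limma, adjusted p = 0.0199). Nop58, a core protein of the same particle, was at 5.30, 5.05 and 4.46 in MYC TAMs, against 5.57, 6.33 and 6.16 in control TAMs, and fell by 1.09 ± 0.27 (limma, adjusted p = 0.0253). The 3 other box C/D genes, Nop56, Rrp9 and Nolc1, differed by -0.87, -1.06 and -0.49 without overlap and did not pass (limma, adjusted p = 0.0693, 0.0802 and 0.0925). In the box H/ACA class, Dkc1, the pseudouridine synthase dyskerin, was at 3.38, 3.34 and 3.61 in MYC TAMs, against 4.35, 4.22 and 4.77 in control TAMs. Dkc1 fell by 1.00 ± 0.27 (limma, adjusted p = 0.0309), while its partners Gar1 and Nhp2 differed by -0.36 and -0.17 with overlapping groups. The median of the 5 box C/D genes was -1.01 and that of the 3 box H/ACA genes -0.36.

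Among 8 small subunit genes Utp20, a large scaffold of the processing assembly, was the only one to pass. It was at 1.13, 2.20 and 1.76 in MYC TAMs, against 2.48, 2.89 and 2.71 in control TAMs. All 3 MYC TAM libraries were lower, and Utp20 fell by 0.99 ± 0.26 (SE; limma, adjusted p = 0.0309). The other 7 ranged from -0.83 for Tsr1 to 0.43 for Nop14, and none passed. With the mouse as a random block Tsr1 fell by 0.83 ± 0.25 (limma, adjusted p = 0.0496), the 1 gene that this block added to the 10. Of the 3 RNA helicases, Ddx21, which works at RNA polymerase I genes and on the precursor, was at 2.47, 2.33 and 2.93 in MYC TAMs, against 3.21, 3.70 and 3.69 in control TAMs. Its groups were apart and it fell by 0.96 ± 0.20 (limma, adjusted p = 0.00983). Ddx10 and Ddx18 differed by -0.56 and 0.01 and did not pass.

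The 4 nucleolar hub genes were split, with 2 differences positive and 2 negative, and the 1 that passed rose. Gnl3, a GTP-binding protein also called nucleostemin and abundant in dividing and stem cells, was at 7.06, 6.65 and 6.26 in MYC TAMs, against 5.51, 5.92 and 6.09 in control TAMs. The lowest MYC TAM library was just above the highest control TAM library, and Gnl3 rose by 0.82 ± 0.23 (SE; limma, adjusted p = 0.0388). Ncl, the RNA-binding protein nucleolin, was at 5.64, 4.88 and 4.72 in MYC TAMs, against 4.98, 5.45 and 5.52 in control TAMs, and did not pass (difference of -0.24, adjusted p = 0.575). Npm1, the histone and ribosome chaperone nucleophosmin, was at 5.38, 5.54 and 5.41 in MYC TAMs, against 5.41, 3.34 and 6.35 in control TAMs. The control TAMs spanned more than 3 log2 units around the tight MYC TAM values, and the difference of 0.41 did not pass (limma, adjusted p = 0.690). Npm1 has many processed pseudogenes in the mouse, and how reads that match several places were counted is not given in the sources used here. Mybbp1a differed by -0.41 with no overlap and did not pass (limma, adjusted p = 0.109).

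**Figure D4:**
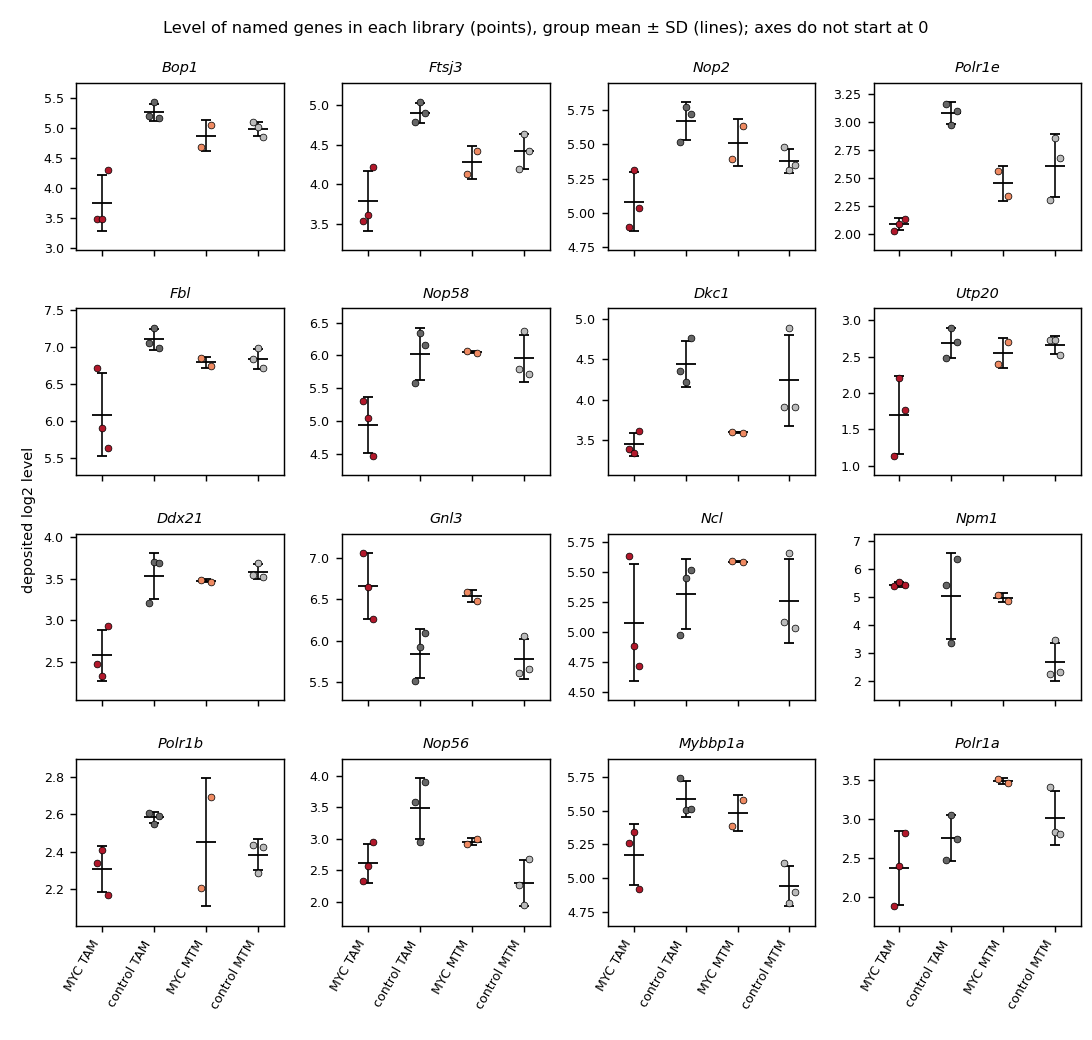
Deposited log2 level of 16 ribosome biogenesis genes in each library (points) with the mean and SD of each group (lines), for MYC TAMs, control TAMs, MYC MTMs and control MTMs from left to right. Bop1, Ftsj3, Polr1e and Ddx21 have their lowest group mean in MYC TAMs, and Gnl3 is higher in MYC mice than in control mice in both macrophage types. Nop56 and Mybbp1a were added after their values had been seen.

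How firmly each call stands differed between genes. Of 23 alternative analyses that gave a value, Bop1 and Ftsj3 passed in 22, Polr1e in 21, Ddx21 in 20, Fbl in 17, Nop2, Nop58 and Utp20 in 15, Gnl3 in 12 and Dkc1 in 11. Leaving out the MYC TAM library of mouse 4 kept 6 of the 10 calls and leaving out the control TAM library of mouse 5 kept 5. Without the control TAM library of mouse 3, 4 of the 10 were kept and Nop56 was called in addition. Fbl did not pass without MYC TAM mouse 4 or control TAM mouse 3 (limma, adjusted p = 0.0738 and 0.0779). Nop58 did not pass without MYC TAM mouse 4 or 6 or control TAM mouse 3 or 5, with an adjusted p of 0.0612 to 0.101. For Utp20 the libraries were MYC TAM mice 2 and 6 and control TAM mice 3 and 5 (0.0522 to 0.112), and for Nop2 MYC TAM mouse 2 and control TAM mice 3 and 5 (0.0729 to 0.0910). Gnl3 did not pass without any 1 of 9 libraries, all but MYC TAM mouse 6 and control MTM mouse 3 (0.0507 to 0.117), and Dkc1 without any 1 of 7, MYC TAM mice 2 and 4, the 3 control TAMs and the 2 MYC MTMs (0.0519 to 0.112).

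Markers of other cells and of dividing cells moved with the same comparison. Of 34 proliferation genes 31 fell, and their summed level on the linear scale was 208 to 297 in MYC TAMs, against 556 to 859 in control TAMs. Of 14 epithelial markers measured 6 fell, with a summed level of 39.0 to 412 in MYC TAMs, against 647 to 1426 in control TAMs. Of the 14 differences 10 were negative and 4 positive. Epcam, Krt8 and Krt18 had their lowest values in MYC TAM mouse 6, at 2.05, 2.93 and 2.85. Krt14 went the other way, with a mean of 4.08 in MYC TAMs, against 2.92 in control TAMs. Of 12 T and NK cell markers 8 fell, with a summed level of 3.06 to 8.07 in MYC TAMs, against 64.3 to 146 in control TAMs, and the T cell receptor gene Cd3g was at 0.05 to 0.30 in MYC TAMs, against 3.44 to 4.94 in control TAMs. Of 6 neutrophil markers measured 3 rose and 1 fell, with a summed level of 38.8 to 99.4 in MYC TAMs, against 125 to 233 in control TAMs. Of the 6 differences 5 were positive. The mean log2 level of the 6 overlapped, at 1.57 to 2.38 in MYC TAMs, against 1.72 to 2.19 in control TAMs. S100a8, whose promoter drives the cre, rose to 4.52 to 6.18 in MYC TAMs, against 2.52 to 3.82 in control TAMs (limma, difference of 2.00, adjusted p = 0.0430). Mmp8 rose as well, by 2.02. Cxcr2 passed but was near its floor, at 0.09 to 0.28 in MYC TAMs, against 0.02 in control TAMs. S100a9 and Ngp differed by 0.17 and 0.33 and did not pass (limma, adjusted p = 0.550 and 0.409). Ltf, which milk-producing epithelium also makes, was the highest of the 6 in control TAMs, at 6.92 to 7.78, and weighs most in their sum. It was at 1.11 to 4.43 in MYC TAMs and fell by 4.47 (limma, adjusted p = 0.00532). With the epithelial level as a covariate 2 of the 41 genes rose and 3 fell, 12.2%, and 3 of the 10 calls were kept. Of all genes 8.63% were called in that fit, 3.17% higher and 5.46% lower, against 15.9% without the covariate. The epithelial mean log2 level did not overlap between the groups, at 1.46 to 3.62 in MYC TAMs, against 3.89 to 4.80 in control TAMs. The median SE over the 41 genes was 0.30, against 0.22 without the covariate, and their median difference -0.24, against -0.39. The calls lost there therefore do not show that the differences follow epithelial content. With the proliferation level as a covariate, added after the data had been seen, none of the 41 and no gene of the table passed, and the median of the 41 was 0.27. That level was 2.10 to 2.24 in MYC TAMs, against 3.48 to 4.10 in control TAMs, so genotype and proliferation level can hardly be told apart in this fit. Its median SE over the 41 genes was 0.67, against 0.22 without the covariate, and Bop1 was at -1.40 ± 0.75 (SE; limma, adjusted p = 0.735). The lost calls therefore do not show that the differences follow proliferation. In these sorted pools, fewer cells of a type and less RNA per cell cannot be told apart, and the part of these cells in the differences of the 41 genes was not tested beyond these fits.

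**Figure D5:**
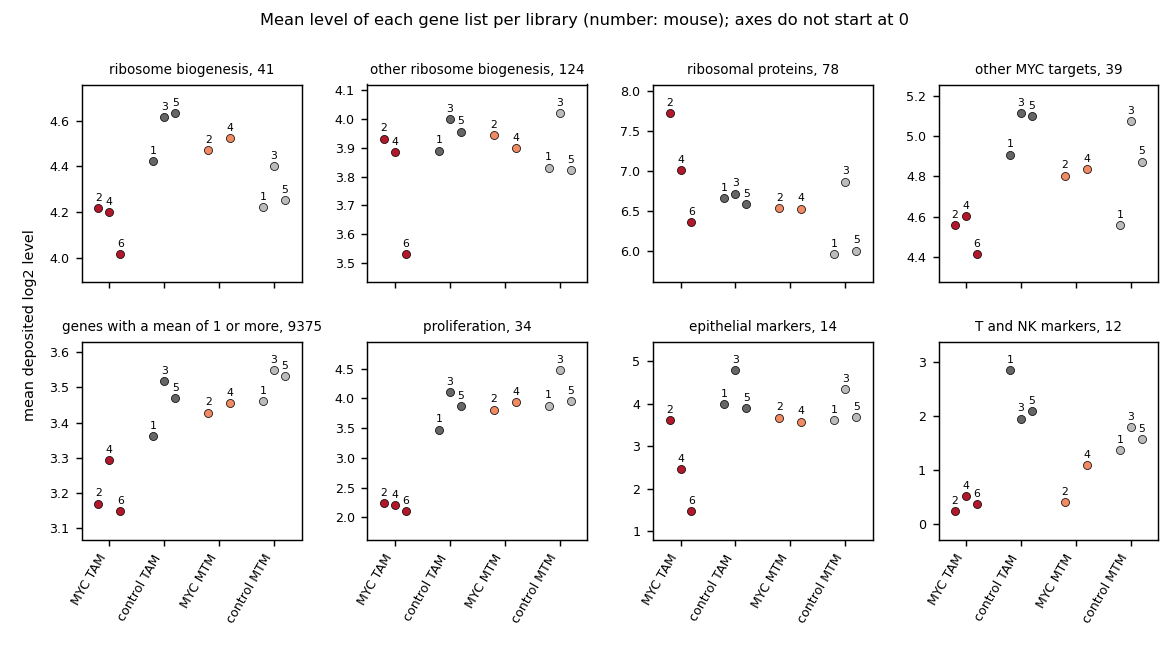
Mean deposited log2 level of 8 gene lists in each library (points, with the mouse number above), for MYC TAMs, control TAMs, MYC MTMs and control MTMs from left to right. The 41 ribosome biogenesis genes and the 34 proliferation genes are both lowest in the 3 MYC TAM libraries. So are the 9375 genes with a mean of 1 or more, whereas the 78 ribosomal protein genes are not.

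A wider list of the same pathway, 124 further ribosome biogenesis genes, gave 12 falls and no rise in MYC TAMs, with a median of -0.15. These 9.68% are below the 12.0% of all genes and the 18.1% of expressed genes called lower. Those with the smallest adjusted p were Nvl, an ATPase that releases factors from the large subunit, Xrn2, a nuclease that trims precursor ends, Heatr1, a small subunit scaffold, and Utp6, a small subunit factor. Nvl fell by 1.09, Xrn2 by 0.62, Heatr1 by 1.44 and Utp6 by 0.84 (limma, adjusted p = 0.00715, 0.00797, 0.00894 and 0.0140). Of 39 other known MYC targets 8 fell, 20.5%, and none rose, with a median of -0.41. The smallest adjusted p were those of Ctps and Cad, enzymes of pyrimidine synthesis, which fell by 1.52 and 1.17 (limma, adjusted p = 0.000331 and 0.00190). Ccnd2, a cyclin of the G1 phase, fell by 2.96 and Prmt3, an arginine methyltransferase, by 1.25 (limma, adjusted p = 0.00220 and 0.00236). The 78 genes for the ribosomal proteins themselves had a positive median of 0.30, with 64 positive and 1, Rpl28, that rose (limma, difference of 1.88, adjusted p = 0.0496). Of 13 genes of the MYC network 3 fell: Myc, Mxd3, a MAX partner of cycling cells, and Mycl1, which was near its floor.

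In MTMs the comparison of MYC with control mice rests on 2 against 3 libraries. None of the 41 genes passed, against 0.618% of all genes and 0.917% of expressed genes. Of the 41, 5, 12.2%, had an unadjusted limma p below 0.05, all higher, against 10.1% of all genes. The unadjusted share was not counted among expressed genes. The median difference was 0.10, with 28 of 41 positive, against -0.02 over all genes. In 11 genes both MYC MTM libraries were above all control MTM libraries, against 11.1% of all genes and 14.9% of expressed genes, and in 3 below, against 20.1% and 23.4%. Npm1 had the largest difference, at 5.08 and 4.85 in MYC MTMs, against 2.24, 3.45 and 2.31 in control MTMs. That gap of 2.30 ± 0.71 had no overlap and did not pass (SE; limma, adjusted p = 0.259). Dkc1 had the largest difference downwards, at 3.60 and 3.59 in MYC MTMs, against 3.91, 4.89 and 3.91 in control MTMs, and -0.64 ± 0.30 did not pass (limma, adjusted p = 0.522). Gnl3 was at 6.59 and 6.48 in MYC MTMs, against 5.61, 6.06 and 5.66 in control MTMs, a difference of 0.76 without overlap that is close in size to that in TAMs and did not pass (limma, adjusted p = 0.309). Ncl was at 5.59 and 5.58 in MYC MTMs, against 5.08, 5.66 and 5.04 in control MTMs, and Fbl at 6.85 and 6.74, against 6.83, 6.98 and 6.72. Both overlapped. Polr1b was at 2.21 and 2.69 in MYC MTMs, on either side of 2.44, 2.29 and 2.42 in control MTMs. None of the 124 further ribosome biogenesis genes passed.

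TAMs were compared with MTMs within each genotype, first in control mice. None of the 41 genes passed, against 2.37% of all genes and 3.49% of expressed genes. Of the 41, 6, 14.6%, had an unadjusted limma p below 0.05, all higher, against 11.8% of all genes. The unadjusted share was not counted among expressed genes. The median difference was 0.20, against -0.00 over all genes, and 30 of 41 were positive. In 13 genes every control TAM library was above every control MTM library, against 6.90% of all genes and 9.16% of expressed genes, and in 1 below, against 12.0% and 16.0%. With the mouse as a fixed block 1 gene rose, Nop56, a core box C/D protein, and with the mouse as a random block Nop56 and Mybbp1a rose. Nop56 was at 3.58, 2.95 and 3.90 in control TAMs, against 2.26, 1.94 and 2.67 in the control MTMs of the same mice. It was higher in 3 of 3 mice, by 1.19 ± 0.28 without a block (limma, adjusted p = 0.0716), and the adjusted p was 0.0329 with the fixed and 0.0394 with the random block. Mybbp1a was at 5.74, 5.50 and 5.51 in control TAMs, against 5.11, 4.82 and 4.90 in control MTMs. Also higher in 3 of 3 mice, by 0.64 ± 0.15 (limma, adjusted p = 0.0707), it passed with the random block (adjusted p = 0.0428). Npm1 differed most, by 2.37 ± 0.64, did not pass (limma, adjusted p = 0.109), and passed without control TAM mouse 3, by 3.21 (adjusted p = 0.00701). Without that library 2 genes rose, Npm1 and Nop56, and without MYC TAM mouse 6 there was 1, Mybbp1a. The largest difference downwards was -0.29 in Wdr43, at 5.74, 6.03 and 6.00 in control TAMs, against 6.22, 6.34 and 6.07 in control MTMs, with no overlap and an adjusted p of 0.796 (limma).

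In MYC mice most differences between TAMs and MTMs were negative. Of the 41 genes 1 fell, Bop1, 2.44%, against 4.49% of all genes, 3.82% lower, and 32 of 41 were negative, with a median of -0.34 against -0.01 over all genes and -0.20 over expressed genes. Bop1 was at 3.49, 3.48 and 4.30 in MYC TAMs, against 4.69 and 5.06 in MYC MTMs, and fell by 1.12 ± 0.25 (SE; limma, adjusted p = 0.0374). The groups did not overlap. Leaving out any 1 of 10 of the 11 libraries, MYC TAM mouse 6 being the exception, left Bop1 short of the threshold, with an adjusted p of 0.0536 to 0.288. Without MYC TAM mouse 6 there were 3 falls, Bop1, Ddx21 and Polr1a, without MYC TAM mouse 2 there was Fbl, and without control TAM mouse 1 Ddx21. With the mouse as a random block 3 genes fell, Bop1, Ddx21 and Nolc1, a snoRNP chaperone (limma, adjusted p = 0.0222, 0.0324 and 0.0456), and with the fixed block Bop1 alone (adjusted p = 0.0236). Polr1a had the largest difference, at 1.88, 2.40 and 2.83 in MYC TAMs, against 3.51 and 3.47 in MYC MTMs. That difference of -1.12 ± 0.31 did not pass (limma, adjusted p = 0.0783) and passed without MYC TAM mouse 6, at -1.35 (adjusted p = 0.0334). Npm1 had the largest difference upwards, 0.48, at 5.38, 5.54 and 5.41 in MYC TAMs, against 5.08 and 4.85 in MYC MTMs (limma, adjusted p = 0.769). In 17 genes every MYC TAM library was below both MYC MTM libraries, against 23.5% of all genes and 34.0% of expressed genes, and in 2 above, against 6.82% and 8.51%. Of the 124 further ribosome biogenesis genes 4 fell, Xrn2, Wdr3, Bysl and Ddx54, and of the 34 proliferation genes 29 fell.

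Whether the cell type difference itself differed between MYC and control mice was tested as an interaction. The 4 comparisons above share libraries, so this test is the measure of their difference. None of the 41 genes passed, against 1.24% of all genes and 2.07% of expressed genes. Of the 41, 12, 29.3%, had an unadjusted limma p below 0.05, all negative. Of all genes 10.9% did, 499 positive and 1398 negative. The unadjusted share was not counted among expressed genes. The interaction was negative in 37 of 41 genes, with a median of -0.51, against 0.01 over all genes and -0.15 over expressed genes. Medians were negative in each role, from -0.36 in the box H/ACA genes to -0.96 in the box C/D genes. Npm1 had the largest interaction, -1.89 ± 0.96 (SE; limma, adjusted p = 0.551), and Bop1 the smallest adjusted p, at -1.39 ± 0.34 (limma, adjusted p = 0.0993). Bop1 passed without MYC TAM mouse 6 and Fbl without MYC TAM mouse 2 (1 call each). At the other end Noc3l, a large subunit factor, had 0.23 (limma, adjusted p = 0.827). It was at 2.16, 2.62 and 2.52 in MYC TAMs, 2.03, 2.90 and 2.85 in control TAMs, 2.42 and 2.28 in MYC MTMs, and 2.63, 2.82 and 2.76 in control MTMs. The difference between TAMs and MTMs was thus not shown to depend on genotype for any of the 41 genes, and of the 34 proliferation genes 6 passed this test, all lower.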

How the data were processed

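The deposited table holds log2 expression values for 17475 genes in 11 libraries. The authors' formula is not stated. The values behave as log2(x + 1), where x is reads per gene length, scaled between libraries: 12973 of 12973 low values tested lay within 0.05 of a whole read number, and GENCODE exon lengths on GRCm38, matched to 93.4% of genes, turned them into estimated depths, which cover counting error only. Per the submitters' processing notes, HISAT2 and DESeq2 were used with mm10 (GRCm38.p5), and what DESeq2 did is not given. Per the labels' protocols, 500 ng of RNA with integrity numbers of 3.3 to 9.6 was poly-A selected and made into stranded libraries with 8 PCR cycles. Integrity per library and the use of strand in counting are not given. Tsr1 shares exon bases with Srr, and Noc2l with Samd11, on the opposite strand, and Ncl, Nop56, Nop58 and Gnl3 hold small nucleolar RNA genes.

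The deposited log2 values of all genes were fitted with limma 3.58.1 (R 4.3.3): 4 group means, variances moderated with a trend, no mouse block, two-sided tests, Benjamini-Hochberg over 17475 genes and a threshold of 0.05, in 5 comparisons. No count test was run, since the file holds no counts. Expressed genes are those with a mean of 1 or more over all libraries. TAM and MTM libraries of the same number come from the same mouse, per the labels. Their deviations from the group means correlated at 0.176, 0.211 and 0.0779 in control and 0.0983 and 0.0379 in MYC mice, and limma estimated a within-mouse correlation of 0.127. No pair of replicates was a copy: the log2 difference within a pair had an SD of 0.369 to 0.815 across the 1729 genes whose mean is at least 5.

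Genes described in each library were the 8 with the smallest adjusted p per comparison and direction, the highest and the lowest mean, the largest rise and fall per comparison, and Ncl, Npm1, Fbl and Polr1b. Of other lists at most 4 genes are named. The members and lists were chosen with earlier results of these data known, and the MYC target and marker lists overlap in function. Alternatives were other offsets (0.1 and 5), a filter at a mean of 1, 2 scalings, mouse blocks, other variance models, fits of 2 groups, covariates and leaving out libraries. Promoter windows came from RefSeq on GRCm38.p6. Python 3.11.15 with pandas 2.3.3, numpy 2.4.6 and matplotlib 3.10.9 was used.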

Additional observations from a re-analysis of the deposited data

How the results depend on the processing

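The counts of the 41 genes called depended on the processing most in the comparisons near the threshold. For MYC against control TAMs, 10 passed, against 15.9% of all genes. The count was 13 in a fit of expressed genes alone, where 28.3% of those genes passed. It was 12 with no variance trend, against 17.1% of all genes. An offset of 0.1 and the random replicate block gave 11 each, against 17.4% and 16.1%. A fit of the 2 groups alone gave 4, against 8.85%, and the epithelial covariate 5, against 8.63%. The proliferation covariate, which was added after the data had been seen, gave 0, against 0% of all genes. Leaving out 1 library gave 5 to 10, against 9.92% to 17.1%. With the proliferation covariate Nop58 and Dkc1 changed sign, to 0.95 and 0.27, without passing. For TAMs against MTMs in MYC mice, 1 passed, against 4.49% of all genes. The count was 5 in a fit of expressed genes alone, where 10.1% of those genes passed. It was 0 with median centring, quantile normalization and a fit of the 2 groups alone, against 3.31%, 3.27% and 0.515% of all genes. The proliferation covariate gave 0, against 0%, and the epithelial covariate 2, against 5.05%. The random replicate block and no variance trend gave 3 each, against 5.56% and 5.66%. Leaving out 1 library, other than a MYC MTM library, gave 0 to 3, against 3.03% to 5.90%. For TAMs against MTMs in control mice, 0 passed, against 2.37% of all genes. The count was 1 in a fit of expressed genes alone, where 4.59% of those genes passed. It was 1 with quantile normalization and with the fixed replicate block, against 2.21% and 1.46% of all genes. With no variance trend and with the epithelial covariate it was also 1, against 2.85% and 2.15%. The random replicate block gave 2, against 3.10%, and leaving out 1 library gave 0 to 2, against 1.22% to 3.07%. For the interaction 0 passed, against 1.24% of all genes. Leaving out 1 library, other than a MYC MTM library, gave 0 to 1, against 0.378% to 1.72%. For MYC against control MTMs the count was 0 under each alternative that kept both MYC MTM libraries, against 0% to 1.61% of the genes tested. Beside Tsr1 and the cell type comparisons, the replicate block changed no call among the genes described in each library. The fixed block could not be fitted to the genotype comparisons, as each mouse has 1 genotype. Myc was lower in MYC than in control TAMs in all 23 alternatives and passed in 20. Groups of 2 or 3 libraries, and unknown RNA integrity per library, limit what these tests can detect.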

Other observations

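Some ribosome biogenesis genes varied widely within at least 1 group, and these were singled out after their values had been seen. Nop16, a large subunit factor, was at 4.94, 4.21 and 5.52 in MYC TAMs, 5.49, 5.84 and 5.05 in control TAMs, 5.45 and 5.72 in MYC MTMs, and 5.42, 3.76 and 6.09 in control MTMs, where its SD of 1.20 was the highest of the 41 genes in that group. Noc2l, a large subunit export factor, was at 4.51, 6.11 and 5.74 in MYC TAMs, 5.88, 6.51 and 5.75 in control TAMs, 5.44 and 5.38 in MYC MTMs, and 3.92, 4.43 and 5.65 in control MTMs. Its exons overlap those of Samd11 on the opposite strand. Rrp9, which binds the U3 small nucleolar RNA, had its widest spread in the 2 MYC MTM libraries, at 3.36 and 4.58.

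Single libraries stood high or low for many genes at once. In control MTMs mouse 3 had the highest value of its group for 28 of the 41 genes, and in control TAMs mouse 1 had the lowest for 27. MYC TAM mouse 6 had the lowest for 22 of 41 and also the lowest mean of the 124 further ribosome biogenesis genes, 3.53, against 3.82 to 4.02 in the other 10 libraries. These counts were not made for other genes. The mean of expressed genes was likewise highest of its group in control MTM mouse 3, at 3.55, against 3.46 and 3.53. It was lowest of its group in control TAM mouse 1, at 3.36, against 3.52 and 3.47. The same held for MYC TAM mouse 6, at 3.15, against 3.17 and 3.29. The ribosomal protein genes spread most in MYC TAMs, with means of 7.73 in mouse 2 and 6.36 in mouse 6, against 6.59 to 6.72 in control TAMs.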
